A study of Mus musculus with 54 samples.

Results

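Hepatokines are proteins that hepatocytes secrete into the blood and that act on other organs. The 8 hepatokine genes described here were Gdf15, Ahsg, Fetub, Selenop, Lect2, Inhbe, Inhbc and Rbp4, chosen by gene symbol among 20162 entries of a liver transcriptome table. Each symbol stood on 1 entry, and 8 of 8 passed the filter of a mean value of at least 1 over all mice, as did 11431 entries in all. The livers came from male C57BL/6J mice of genotype WT that all received a high-fat diet (HFD) from the age of 8 weeks, a model of diet-induced obesity and fatty liver. DINP (di-isononyl phthalate, a plasticizer) was given daily in a gelatin pellet for 20 weeks, at a low dose of 1.5 mg/kg bw/d (13 mice), a middle dose of 15 (13 mice) or a high dose of 150 (14 mice), and 14 control mice received a pellet without DINP. No group without HFD was analysed here, so that each comparison is between mice that shared the diet.

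In fatty liver the hepatocyte changes what it secretes, and several of these proteins carry that signal to muscle, fat and brain. Fetuin-A, fetuin-B, selenoprotein P, LECT2 and RBP4 have each been tied to insulin resistance, whereas GDF15 is a stress hormone that lowers food intake through a receptor in the hindbrain. Activin C and activin E, made from the Inhbc and Inhbe subunits, belong to the TGF-beta family, and activin E acts on lipolysis in fat tissue.

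Across doses, 2 of the 8 genes passed the test against control, both at the middle dose. Lect2 was higher there and Ahsg was lower. Of all genes tested, 14.2% passed at the middle dose. Neither Lect2 nor Ahsg passed by a Wilcoxon rank-sum test, or without 5 middle-dose mice with a high share of ribosomal protein genes. At the high dose Lect2 was lower than at the middle dose, and its difference from control did not pass the test. Inhbc was higher at the middle than at the low dose, but did not pass by the Wilcoxon test or without the 5 mice. Gdf15 varied more from mouse to mouse than nearly all genes of a like level, and no difference between its groups passed the test in the fit with the 4 groups alone. Values are given as scaled TPM, the deposited transcript abundance per gene, adjusted for transcript length and for a size factor of each mouse. Differences are log2 fold changes (log2FC) of the value plus 1 with their standard error (SE), tested with limma and called at an adjusted p under 0.05.

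The promoters of the 2 genes called against control are shown because both genes moved at the same dose in opposite directions. Each runs from 250 bases before to 50 bases after the gene start in RefSeq (GRCm38.p6), which held a promoter for 8 of 8 genes, and is written 5′ to 3′ on the strand of the gene. Lect2 was at chr13:56548489-56548788 on the minus strand and Ahsg at chr16:22891765-22892064 on the plus strand. Capitals mark the motifs that were found.
Lect2: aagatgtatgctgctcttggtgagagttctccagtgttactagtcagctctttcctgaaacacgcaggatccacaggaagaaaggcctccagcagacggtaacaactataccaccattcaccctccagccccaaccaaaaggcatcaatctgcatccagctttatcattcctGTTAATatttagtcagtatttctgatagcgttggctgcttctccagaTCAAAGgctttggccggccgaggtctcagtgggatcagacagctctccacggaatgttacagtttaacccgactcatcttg
Ahsg: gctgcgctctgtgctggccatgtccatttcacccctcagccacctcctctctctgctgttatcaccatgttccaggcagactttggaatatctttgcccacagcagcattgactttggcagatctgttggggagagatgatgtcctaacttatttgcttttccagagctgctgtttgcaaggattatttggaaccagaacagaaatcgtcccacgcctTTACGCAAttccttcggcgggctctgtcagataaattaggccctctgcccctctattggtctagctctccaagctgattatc
The motifs searched on both strands were TATAAA (a core promoter element), GTTAAT (the core of an HNF1 site), TTGCNNAA (C/EBP), TGATGNAA (C/EBP with ATF), TTCNNNGAA (STAT5), AGGTCA (the element that nuclear receptors bind), 2 such elements 1 base apart (DR1) and CTTTGA (T-cell factor). The DR1 motif holds the single element by its construction. The Lect2 promoter held GTTAAT, which 7.1% of 32817 promoters of the same length held, and CTTTGA on the other strand, which 16.0% held. The Ahsg promoter held TTGCNNAA on the other strand, which 10.8% held. Neither promoter held TATAAA (13.6% of promoters) or AGGTCA (16.3% of promoters). A match describes these letters and is not a measured binding site.

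The markers were those of the labelled tissue. The summed level of 7 hepatocyte markers had a median of 38205 in control and of 38665, 40098 and 36382 at the low, middle and high dose. Within bulk liver, fewer hepatocytes and less RNA per hepatocyte cannot be told apart. Some libraries stood apart. At the middle dose 5 mice (replicates 5 to 9) had a share of ribosomal protein genes of 2.09 to 2.59% of all values. That was above the highest control of 2.04%, while the other 8 mice of that dose reached at most 1.92%. High-dose replicate 10 was also above that control (2.09%), and had the highest Rbp4, Selenop and Fetub of its group. It stayed in the fits without the 5 mice, which left out such libraries at the middle dose only. Control replicate 8 had the smallest scaling step (0.764) and the most entries above 0 (14221, against a median of 12714 over all mice). Each call of a hepatokine gene that involves the middle dose is given with and without the 5 mice. Without control replicate 8, 24 of 24 differences of the 8 genes from control stayed on their side of the test, while 11 of them, none called, moved by over 1.5 times or changed sign. At the middle dose limma called 1 of 7 hepatocyte markers, Ttr, which was higher. Among markers of other cells, Pecam1 was lower at the middle dose (log2FC -0.52, limma adjusted p = 0.000867), as the 1 of 4 sinusoidal endothelial markers called there or at an unadjusted p under 0.05, and its log2FC was -0.29 (adjusted p = 0.108) without the 5 mice. Cfd, the fifth of 5 adipocyte markers, was higher at the high dose (log2FC 2.07, limma adjusted p = 0.00335). Adipoq, Lep, Plin1 and Retn were at 0 in most mice over the 4 groups together. Their part in the hepatokine values was not tested. Of the markers of cholangiocytes (2 tested), Kupffer cells or macrophages (5), stellate cells or fibroblasts (5), blood cells (4) and exocrine pancreas (1), limma called 0 at each dose, with 0 to 2 of a list at an unadjusted p under 0.05 and 0 called by a Wilcoxon test.

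On the TPM scale the 8 genes spanned from a mean of 13.2 (Inhbe) to 16378 (Ahsg) over 54 mice. Ahsg ranked 11 among all entries and made up 1.70% of the summed values. Rbp4 followed at 1288 (rank 70), then Selenop at 851 (rank 115), Lect2 at 167 (rank 577), Fetub at 149.7 (rank 647), Inhbc at 31.2 (rank 2383) and Gdf15 at 25.9 (rank 2682). The libraries read the 3′ end of transcripts, so that division by transcript length in TPM can shift these ranks. Its effect on the comparison of 1 gene between mice was not tested.

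**Figure D1:**
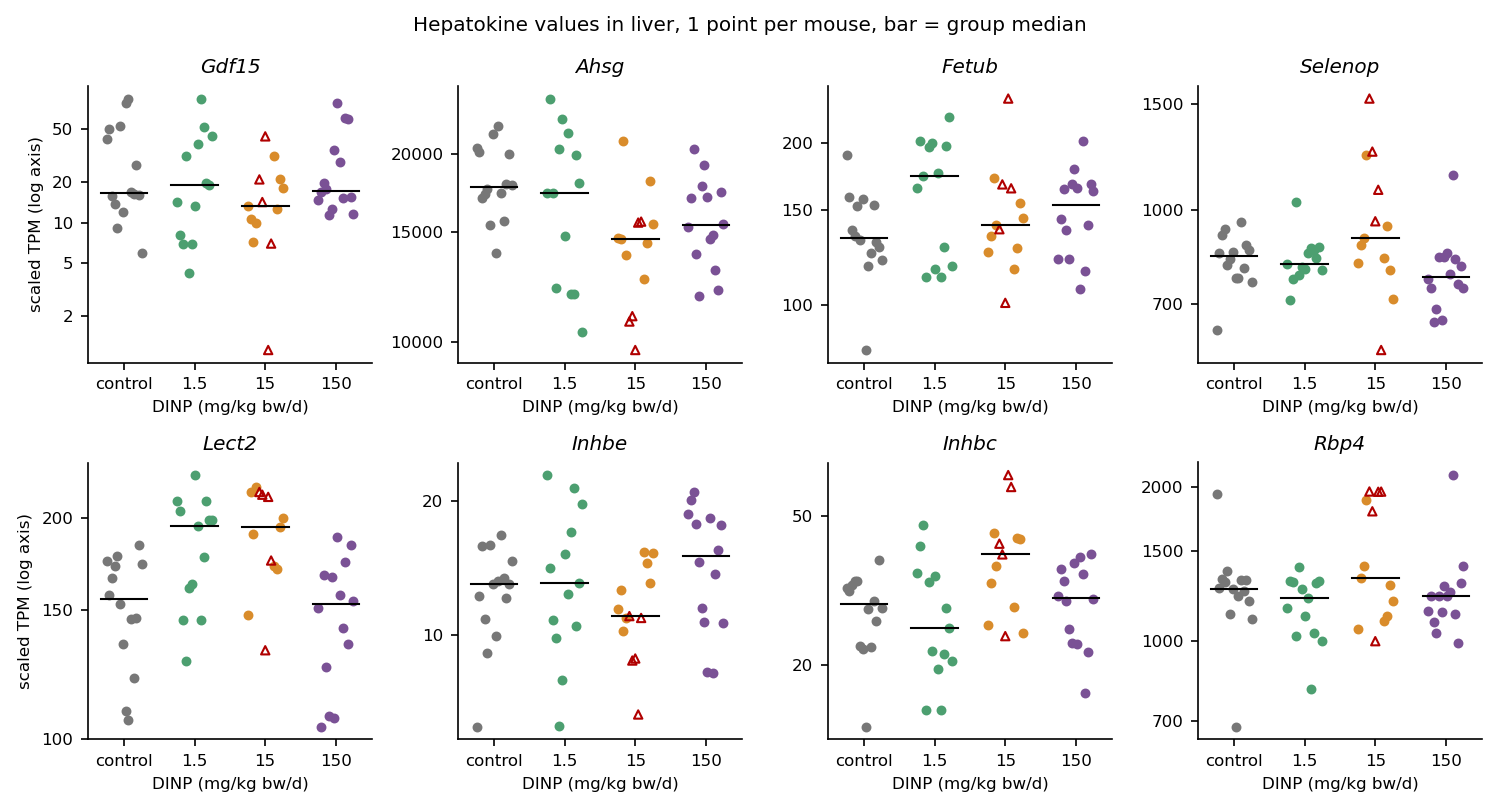
Value of each hepatokine gene in each mouse (vertical log axis, scaled TPM) by DINP dose (horizontal axis, mg/kg bw/d), with 1 point per mouse and a bar at the group median. Open red triangles are the 5 mice at the middle dose with a high share of ribosomal protein genes. At the middle dose, 8 of 13 mice lie above every control for Lect2 and 5 of 13 lie below every control for Ahsg.

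Lect2 (leukocyte cell-derived chemotaxin 2) is a hepatocyte protein that rises with hepatic fat and lowers insulin signalling in muscle. Its gene lies on chromosome 13 from 56542464 to 56548502 on the minus strand (GRCm38, GENCODE M21). The lowest, median and highest values were 106, 155 and 184 in control, 128, 195 and 228 at the low dose, 132, 194 and 219.8 at the middle dose, and 104, 152 and 188 at the high dose. The low and middle doses were thus shifted upward, with overlap, and the high dose covered the control range.

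The group means of Lect2 were 151 ± 25.6 (SD, n = 14) in control, 182 ± 31.0 (n = 13), 189 ± 28.4 (n = 13) and 147 ± 28.3 (n = 14) with increasing dose. At the middle dose the log2FC against control was 0.33 (SE 0.10, limma adjusted p = 0.0200), with 11 of 13 mice above the control median. At the low dose it was 0.26 (adjusted p = 0.216), with 10 of 13 mice above the control median, which did not pass the test. The value at the middle dose hardly moved without the 5 mice with the high ribosomal protein share (log2FC 0.33), but on the 8 mice left the adjusted p was 0.0790. It also missed the threshold with the number of entries above 0 as a covariate (log2FC 0.24, adjusted p = 0.0549), after quantile normalization (adjusted p = 0.0678) and by a Wilcoxon rank-sum test (adjusted p = 0.0565).

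Between doses, Lect2 was lower in the high-dose than in the middle-dose group by a log2FC of -0.37 (SE 0.10, 95% interval -0.57 to -0.17, limma adjusted p = 0.00547). At the high dose the log2FC against control was -0.04 (95% interval -0.24 to 0.15, adjusted p = 0.891). The lower level at the high than at the middle dose kept its call in 14 of 14 other fits, with adjusted p from 0.000296 to 0.0305, and in each of 27 fits without 1 mouse of either group, but not where a log2FC beyond 0.5 was asked for as well. Without the 5 mice with the high ribosomal protein share the log2FC was -0.37 and the adjusted p was 0.0305. The difference of the high from the low dose was -0.31 (limma adjusted p = 0.0595), close to the threshold. It stayed uncalled in 7 of 13 other fits (adjusted p from 0.00162 to 0.113) and in 20 of 27 fits without 1 mouse. Where that changed, Lect2 was called as lower at the high dose. The order of the levels was middle, low, control and high, of which no neighbours differed by the test.

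Ahsg encodes fetuin-A, an abundant plasma glycoprotein that binds the insulin receptor and blocks its kinase. The gene lies on chromosome 16 from 22891277 to 22899449 on the plus strand, and Gm30505 overlaps it on the other strand. Its lowest, median and highest values were 13903, 17713 and 22160 in control, 10362, 17341 and 24535 at the low dose, 9714, 14628 and 20980 at the middle dose, and 11857, 15377 and 20384 at the high dose. At both higher doses 11 mice were below the control median, of 13 at the middle dose and of 14 at the high dose, and all groups overlapped.

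The group means of Ahsg were 18152 ± 2409 (SD, n = 14) in control, 17158 ± 4614 (n = 13), 14409 ± 3038 (n = 13) and 15711 ± 2565 (n = 14) with increasing dose. Only the middle dose passed the test against control, with a log2FC of -0.35 (SE 0.11, limma adjusted p = 0.0286), while the low dose had -0.12 (adjusted p = 0.727) and the high dose -0.21 (adjusted p = 0.382). The 3 lowest mice at the middle dose (9714, 10789 and 11005) were among the 5 with the high ribosomal protein share, and without these 5 mice the log2FC was -0.23 (adjusted p = 0.319). The call was also lost without control replicate 9 (adjusted p = 0.05002), without replicate 5 (0.0626), 6 (0.0586) or 7 (0.0580) at the middle dose, with no filter on low values (0.121), with array quality weights (0.0999), by the Wilcoxon test (0.0522) and with the ribosomal protein share as a covariate (log2FC -0.28, adjusted p = 0.180). With the number of entries above 0 as a covariate it was kept (log2FC -0.44, adjusted p = 0.00216). The order of the levels was control, low, high and middle, of which no neighbours differed by the test.

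Fetub, the neighbour of Ahsg on chromosome 16 (22918334 to 22939778, plus strand, 18884 bases away with no gene between), encodes fetuin-B, a related protein of the cystatin superfamily. Its lowest, median and highest values were 82.6, 133 and 190.1 in control, 113, 174 and 224 at the low dose, 101, 141 and 242 at the middle dose, and 107, 154 and 202 at the high dose. All groups overlapped, and 8 of 13 mice at the low dose lay above the control median. With increasing dose the log2FC against control was 0.23, 0.10 and 0.13 (limma adjusted p = 0.420, 0.610 and 0.675). With the number of entries above 0 as a covariate the differences at the middle and the high dose turned to -0.03 and -0.07, so that no direction is given for them. The levels as measured were in the order low, high, middle and control, with no neighbours that differed by the test. This order did not hold with the covariate, with which Fetub passed the test as lower at the middle than at the low dose (log2FC -0.26, limma adjusted p = 0.0196) and as lower at the high than at the low dose (log2FC -0.29, limma adjusted p = 0.0229).

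Selenop encodes selenoprotein P, the plasma carrier of selenium. The gene lies on chromosome 15 from 3268547 to 3280508 on the plus strand and overlaps Ccdc152 on the other strand. Its lowest, median and highest values were 632, 839 and 956 in control, 709.96, 815 and 1030.2 at the low dose, 586, 897 and 1530 at the middle dose, and 653, 776 and 1144 at the high dose. The middle-dose group was the widest, with both the lowest and the highest mouse of the study and 5 of 13 mice above every control.

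No dose of Selenop differed from control (log2FC 0.00, 0.18 and -0.07 with increasing dose, limma adjusted p = 0.996, 0.185 and 0.775). Between the high and the middle dose the log2FC was -0.25 (SE 0.09, limma adjusted p = 0.0375). This call was close to the threshold: it was lost in 10 of 27 fits without 1 mouse (log2FC from -0.31 to -0.19, adjusted p up to 0.104, without replicate 5 at the middle dose) and kept in 6 of 14 other fits. Without the 5 mice with the high ribosomal protein share it was -0.16 (adjusted p = 0.229), with a replicate block the adjusted p was 0.0524, and with the 2 groups alone it was 0.131. The order of the levels was middle, low, control and high, of which no neighbours differed by the test.

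Rbp4 encodes the plasma carrier of retinol and lies on chromosome 19 from 38116629 to 38125281 on the minus strand. Its lowest, median and highest values were 683, 1267 and 1932 in control, 810.2, 1216 and 1398 at the low dose, 1001, 1326 and 1957 at the middle dose, and 994, 1225 and 2107 at the high dose. The middle dose fell into separate ranges, with 5 mice (replicates 4, 5, 6, 8 and 9) from 1791 to 1957 and the other 8 from 1001 to 1401. No dose differed from control (log2FC -0.09, 0.20 and -0.01, limma adjusted p = 0.814, 0.265 and 0.985), and at the middle dose the log2FC was 0.04 without the 5 mice with the high ribosomal protein share and 0.13 without control replicate 8. The order of the levels was middle, control, high and low, of which no neighbours differed by the test.

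Inhbc and Inhbe encode the beta C and beta E subunits of the activins. They are neighbours on the minus strand of chromosome 10 (127356322 to 127370431 and 127348857 to 127354411), 1910 bases apart with no gene between, and Gm47200 overlaps both on the other strand. Inhbc had lowest, median and highest values of 13.8, 29.1 and 38.1 in control, 15.2, 25.2 and 47.1 at the low dose, 23.9, 39.5 and 64.1 at the middle dose, and 16.9, 30.3 and 39.5 at the high dose. The middle dose was the highest, with 7 of 13 mice above every control and the rest inside the control range.

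The log2FC of Inhbc at the middle dose was 0.43 against control (SE 0.16, limma adjusted p = 0.0548) and 0.51 against the low dose (SE 0.16, limma adjusted p = 0.0182). The first passed the test in 8 of 27 fits without 1 mouse, with adjusted p from 0.0279 to 0.123, and with a minimum mean of 5 (adjusted p = 0.0394), but was 0.31 (adjusted p = 0.334) without the 5 mice with the high ribosomal protein share. The second kept its call in each of 26 fits without 1 mouse, but in the fit without the 5 mice it was 0.38 (adjusted p = 0.205). At the low and the high dose the log2FC against control was -0.07 (adjusted p = 0.907) and 0.08 (adjusted p = 0.870), and without control replicate 8 these were -0.15 and 0.0097. Neighbours in the order middle, high, control and low did not differ by the test.

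Inhbe had lowest, median and highest values of 6.23, 13.1 and 16.8 in control, 6.26, 13.1 and 22.9 at the low dose, 6.63, 11.0 and 15.3 at the middle dose, and 8.21, 15.1 and 20.9 at the high dose. All groups overlapped, and 6 of 14 mice at the high dose lay above every control. The log2FC against control was 0.09, -0.12 and 0.19 with increasing dose (limma adjusted p = 0.884, 0.667 and 0.615). At the middle dose the log2FC turned to 0.12 with the ribosomal protein share as a covariate and to 0.0549 without the 5 mice, so that no direction is given for it. Neighbours in the order as measured (high, low, control and middle) did not differ by the test.

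Gdf15 encodes growth differentiation factor 15, which cells under stress secrete, and lies on chromosome 8 from 70629393 to 70632456 on the minus strand. Its lowest, median and highest values were 5.86, 16.6 and 84.8 in control, 4.17, 19.2 and 85.1 at the low dose, 1.11, 13.3 and 44.3 at the middle dose, and 11.5, 17.4 and 78.6 at the high dose. The spread inside each group exceeded any distance between groups. The SD within groups was 1.10 on the log2 scale, above that of 98.8% of 1317 genes of a like mean, whose median SD was 0.28.

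The group means of Gdf15 were 31.6 ± 26.0 (SD, n = 14), 26.5 ± 23.5 (n = 13), 16.3 ± 11.4 (n = 13) and 28.5 ± 22.0 (n = 14) with increasing dose. At the middle dose the log2FC against control was -0.82 (SE 0.41, 95% interval -1.64 to 0.003, limma adjusted p = 0.187), and 8 of 13 mice lay under the median of the controls. It was -0.42 with the number of entries above 0 as a covariate and -0.29 by group medians. At the low and the high dose it was -0.30 (adjusted p = 0.829) and -0.03 (adjusted p = 0.983). The 95% interval at the high dose ran from -0.83 to 0.77, and with this spread smaller changes could not be resolved. With entries above 0 as a covariate the high dose turned to 0.55 against control (adjusted p = 0.438) and passed the test against the middle dose (log2FC 0.97, limma adjusted p = 0.0227, against 0.79 and 0.174 without the covariate). The order of the levels was control, high, low and middle, of which no neighbours differed by the test.

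**Figure D2:**
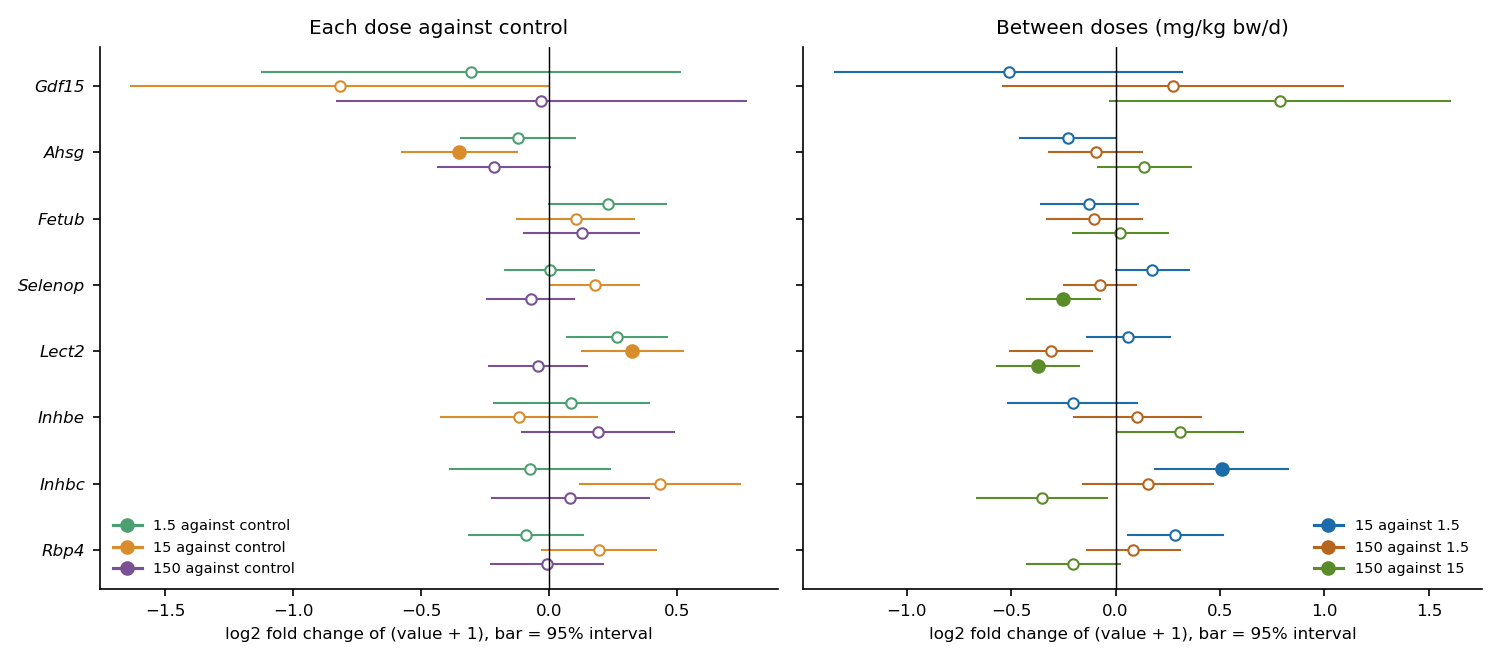
Log2 fold change of each hepatokine gene (horizontal axis) with its 95% interval, for each dose against control on the left and between doses on the right. Filled points passed an adjusted p under 0.05: Lect2 (0.33) and Ahsg (-0.35) at the middle dose, Inhbc (0.51) between the middle and the low dose, and Lect2 (-0.37) and Selenop (-0.25) between the high and the middle dose.

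Counted over the 8 genes, 0 were called at the low dose, where 1.20% of the 11431 genes tested were called, 2 at the middle dose (14.2% of all genes) and 0 at the high dose (2.17% of all genes). At an unadjusted p under 0.05 by limma there were 1, 4 and 0 of them, against 12.3%, 27.0% and 14.0% of all genes, and by the Wilcoxon test 0 were called at each dose. With a log2FC beyond 0.5 asked for as well, 0 of the 8 remained at each dose, against 0.367%, 3.72% and 0.840% of all genes. The median log2FC of the 8 genes was -0.04, 0.14 and -0.02 with increasing dose, against -0.01 to 0.00 over all genes. Between doses, 1 was called at the middle against the low dose (21.4% of all genes), 0 at the high against the low dose (4.61%, with 1 at an unadjusted p under 0.05 by limma and 0 called by the Wilcoxon test) and 2 at the high against the middle dose (20.0%). Without the 5 mice with the high ribosomal protein share, 0 of the 8 genes were called at the middle dose against control (5.20% of all genes), 0 at the middle against the low dose (6.08%) and 1 at the high against the middle dose (8.03%). Beside these backgrounds, no count among the 8 genes is read as particular to hepatokines.

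Genes around the hepatokines were counted in lists. Over all genes tested, 1.20% were called at the low dose, 14.2% at the middle dose and 2.17% at the high dose. A count of a list near these shares is not read as a response of that list. Of 33 other liver-secreted hormones, 0 were called at the low dose, 4 at the middle dose and 1 at the high dose. Angptl4, an inhibitor of lipoprotein lipase, rose at the middle dose (log2FC 0.55, adjusted p = 0.0166) and at the high dose (log2FC 1.47, adjusted p = 9.84e-09) by limma. Serpina6, which carries corticosteroids, and Igf1, the growth factor that growth hormone induces, rose at the middle dose (log2FC 0.50 and 0.39), and Agt, the precursor of angiotensin, fell (log2FC -0.23).

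In the activin and follistatin list, 3 of 23 genes were called at the middle dose and 0 at the other doses: the propeptide-cleaving protease Furin fell (log2FC -0.43, limma adjusted p = 0.0100), as did Id2 (-0.31, 0.0466), and Smad1 rose (0.28, 0.0120). Of 20 genes of the integrated stress response, the pathway known to induce Gdf15, 0 rose and 3 fell at the middle dose: Atf5 (log2FC -0.81, limma adjusted p = 0.0105), Ddit4 (-0.70, 0.00700) and Slc3a2 (-0.32, 0.0157). Shmt2, a mitochondrial enzyme of serine metabolism in that list, rose at the low dose (log2FC 0.29, limma adjusted p = 0.0426) and at the high dose (0.26, 0.0486).

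Around Rbp4, 3 of 19 retinol genes rose at the middle dose: Ttr, whose protein holds RBP4 in plasma (log2FC 0.42, limma adjusted p = 0.0231), the retinoid receptor Rxra (0.43, 8.11e-05) and the esterase Ces1d (0.63, 0.0118). Only Rdh16 of that list rose at the high dose (log2FC 0.60, limma adjusted p = 0.0179), and 0 were called at the low dose. Around the fetuins, the insulin receptor Insr rose at the middle dose (log2FC 0.24, limma adjusted p = 0.0198), as did its inhibitory adaptor Grb14 (0.33, 0.00505), and its substrate Irs1 fell (-0.41, 0.00434), out of 9 genes tested, with 0 at the other doses. Of 6 cystatin superfamily genes, Kng2 rose at the low dose (0.31, 0.0460) and Hrg at the middle dose (0.50, 0.00367).

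Of 23 selenoprotein genes, Selenot alone rose at the middle dose (log2FC 0.32, limma adjusted p = 0.0287), and 0 were called at the other doses. In a list for LECT2, with the receptor Met and the Wnt effector Ctnnb1 among 7 genes tested, 0 were called at each dose by limma. Glul, Tbx3, Axin2 and Lgr5 of this list stood in the list of pericentral genes too, so that the count does not describe receptors alone. The most abundant genes of the list were Glul, an enzyme, with a log2FC of 0.06, 0.09 and 0.09 with increasing dose, and Ctnnb1, with -0.08, 0.03 and -0.17. Over the 12 lists counted here, limma called 0 genes in 18 combinations of list and dose, in which 0 to 6 genes had an unadjusted p under 0.05 and 0 were called by the Wilcoxon test.

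Of the list of 22 PPARalpha target genes, 15 rose at the high dose, and the median log2FC was 0.83. Cyp4a14, a fatty acid hydroxylase, had a log2FC of 1.84 (limma adjusted p = 7.28e-05). At that dose 0 of the 8 hepatokine genes was called, beside 2.17% of all genes tested. With that share, 0 of 8 does not set the hepatokine genes apart. At the middle dose 3 of the 22 rose, among them Fabp1, the fatty acid carrier (log2FC 0.87, limma adjusted p = 0.00191), and at the low dose 0 were called. Of 20 hepatocyte transcription factors, Prox1 fell at the middle dose (log2FC -0.42, limma adjusted p = 0.00880) and Ppara rose at the high dose (0.58, 0.00187). Of 12 pericentral genes Cyp2a5 rose at the middle dose (0.75, 0.00700), and of 12 periportal genes Hsd17b13 (0.39, 0.0278) and Arg1 (0.34, 0.00161) rose at that dose.

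Most calls of these listed genes at the middle dose were not made without the 5 mice with the high ribosomal protein share. Of the 24 genes called at that dose over all lists, 8 kept their call without these mice and 24 kept their sign. The 8 were Igf1, Serpina6, Slc3a2, Rxra, Hrg, Irs1, Cyp2a5 and Arg1. The log2FC without the 5 mice was -0.33 for Atf5 (adjusted p = 0.444), -0.0871 for Furin (0.678), 0.0808 for Selenot (0.701), 0.27 for Ttr (0.319) and 0.30 for Fabp1 (0.316) by limma. Without control replicate 8, 22 of the 24 kept their call.

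Some pairs of hepatokine genes also varied together, or in opposite directions, from mouse to mouse. Deviations of log2(value + 1) from the group means were correlated over 54 mice for 28 pairs, and 15 pairs had an adjusted p under 0.05 in a 2-sided permutation test with 100000 resamples within groups, 8 positive and 7 negative. The share of pairs called among other genes was not computed, so that 15 of 28 is not read as particular to hepatokines. The highest was Fetub with Rbp4 (Pearson r = 0.722, Spearman rho = 0.702, smallest permutation p possible of 1e-05, adjusted 7e-05), followed by Ahsg with Fetub (r = 0.665, rho = 0.683, adjusted permutation p = 7e-05) and Inhbc with Rbp4 (r = 0.624, rho = 0.565, adjusted permutation p = 7e-05). The most negative was Gdf15 with Inhbc (r = -0.618, rho = -0.568, adjusted permutation p = 7e-05), which was negative in each of the 4 groups (r from -0.770 to -0.405).

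The neighbours on chromosome 10 did not vary together: Inhbe and Inhbc had r = -0.075 (rho = -0.064, adjusted permutation p = 0.713), whereas the neighbours on chromosome 16, Ahsg and Fetub, had r from 0.497 to 0.884 in the 4 groups. Inhbe was negative with Fetub (r = -0.468, rho = -0.459, adjusted permutation p = 0.00255) and with Rbp4 (r = -0.454, rho = -0.500, adjusted permutation p = 0.00144). Without the 2 mice farthest from the median of the first gene, r was 0.657 for Fetub with Rbp4, 0.647 for Ahsg with Fetub, 0.572 for Inhbc with Rbp4, -0.550 for Gdf15 with Inhbc, -0.492 for Inhbe with Fetub and -0.375 for Inhbe with Rbp4, and 14 of the 15 pairs kept an adjusted p under 0.05.

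Measures of the whole library moved with these genes. The scaling step of each mouse had r = 0.707 with Fetub, 0.621 with Rbp4, 0.524 with Inhbc, 0.486 with Lect2 and 0.484 with Ahsg. With Gdf15 it had -0.455, with Inhbe -0.263 and with Selenop 0.058. Each deposited value is a whole multiple of this step, which thus enters every gene, and both genes of a pair, by construction. The r with the step are therefore not between independent measures. The share of genes of the mitochondrial genome had r = -0.559 with Rbp4 and 0.388 with Inhbe, and the ribosomal protein share 0.404 and -0.460. Over the 54 mice, r with the number of entries above 0 was -0.761 for Rbp4, -0.758 for Fetub, -0.664 for Inhbc, -0.548 for Lect2, -0.502 for Ahsg and 0.627 for Gdf15, but -0.072 for Selenop and 0.235 for Inhbe. With this number regressed out of both genes, 5 of the 15 pairs kept an adjusted p under 0.05: Ahsg with Fetub (r = 0.503), Ahsg with Selenop (-0.454), Fetub with Inhbe (-0.458), Inhbe with Rbp4 (-0.437) and Fetub with Rbp4 (0.343). Gdf15 with Inhbc then had r = -0.347 (adjusted permutation p = 0.0525) and Gdf15 with Rbp4 had r = 0.018. The scaling step and the mitochondrial and ribosomal shares were not regressed out. What sets the number of entries above 0 was not tested.

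**Figure D3:**
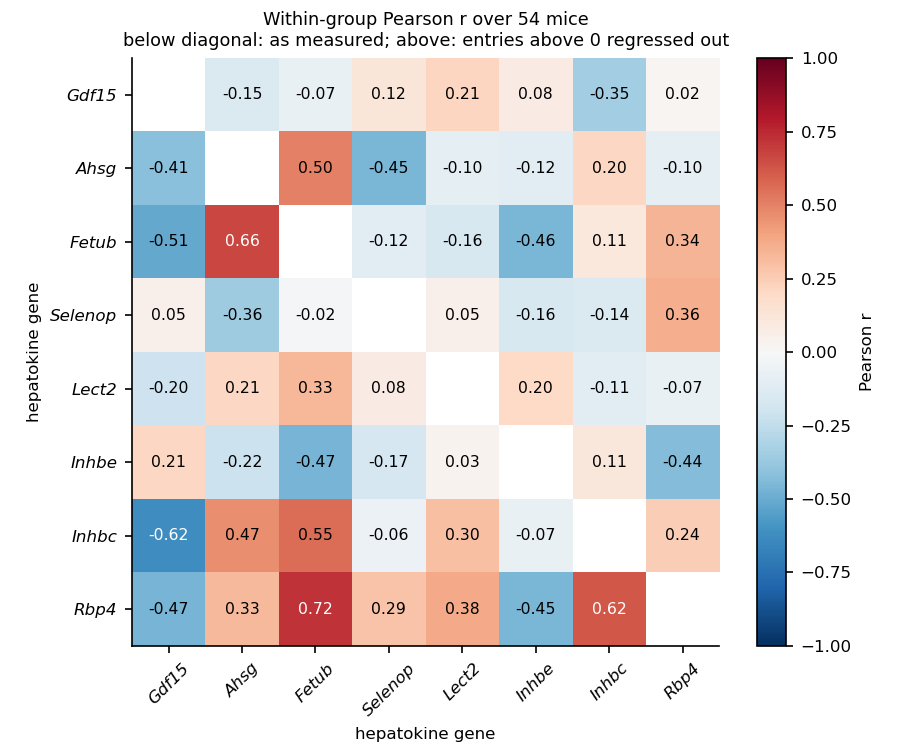
Pearson r between the hepatokine genes over 54 mice after removal of the group means (colour scale from -1 to 1). Below the diagonal r is as measured, with Fetub and Rbp4 at 0.72 and Gdf15 and Inhbc at -0.62, and above it the number of entries above 0 was regressed out, which leaves Ahsg and Fetub at 0.50.

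**Figure D4:**
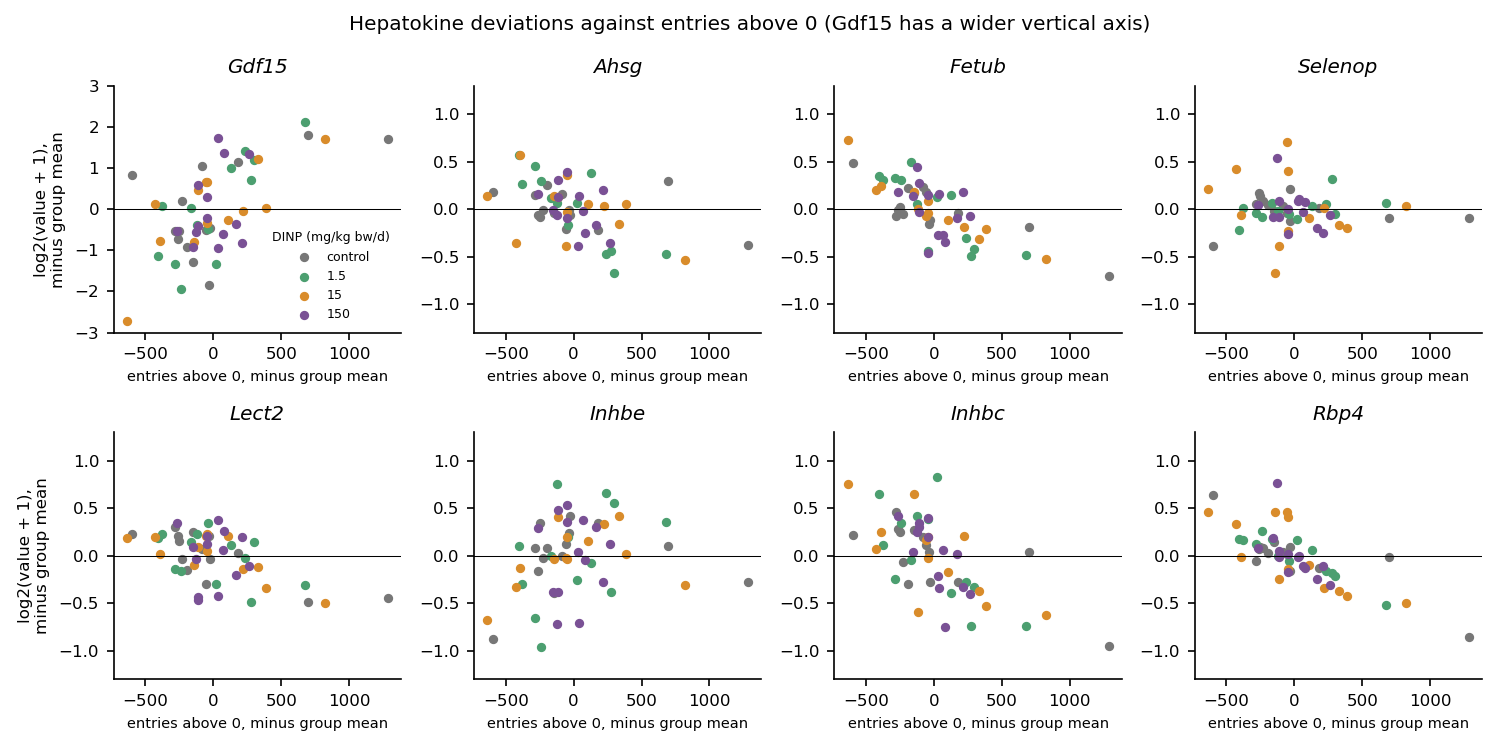
Deviation of each hepatokine gene from its group mean (vertical axis, log2 of value plus 1) against the deviation of the number of entries above 0 in the same mouse (horizontal axis), coloured by dose. Rbp4 and Fetub fall (r = -0.761 and -0.758) and Gdf15 rises (r = 0.627) with that number, while Selenop shows little relation (r = -0.072).

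The genes whose deviations were most like each hepatokine were taken from 4906 genes with a mean of at least 10, as a description over 54 mice that share the library effects given above. For Gdf15 they were Plin2, the coat protein of lipid droplets (r = 0.741, from 0.521 to 0.890 in the 4 groups), the acute phase protein Hp (0.710) and the antioxidant enzyme Srxn1 (0.709). For Lect2 they were Oat (0.767, from 0.714 to 0.843 in the groups), Glul (0.649, from 0.203 to 0.821) and Pon1 (0.638, from 0.223 to 0.840). Oat and Glul are both enzymes of hepatocytes around the central vein. For Ahsg the genes were the receptors Lifr (0.866, from 0.417 to 0.947) and Egfr (0.844, from 0.437 to 0.935) and the plasma serpin Serpina3k (0.827, from 0.697 to 0.910).

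For Rbp4 the genes most like it were those of the plasma proteins Hrg (r = 0.875), Serpina1b (0.874) and Apoh (0.872), and for Fetub Cyp4f14 (0.840), Ces3a (0.813) and Epb41l4b (0.805). For Inhbc they were Hagh (0.803), Ero1b (0.787) and Ugt2b5 (0.779), and for Inhbe the canalicular transporter Abcb4 (0.643), the beta-oxidation enzyme Acadm (0.640) and Cltb (0.626). Selenop had the lowest values, with Mthfs (0.587), Mtx2 (0.585) and Ftl1 (0.573), and the r of Mthfs ranged from -0.197 to 0.804 in the 4 groups.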

How the data were processed

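RNA of 1 liver lobe per mouse (54 mice) was read from the 3′ end (QuantSeq). For alignment and quantification the authors ran the nf-core/rnaseq pipeline, with STAR, Salmon and RSEM named in their notes, on GRCm38. The deposited values are a signal, TPM rounded to whole numbers and scaled by the authors with a factor per mouse: 100% were whole multiples of 1 step per mouse (0.764 to 1.11, tolerance 0.001). Read depth is not kept, so that no counting error can be given. Where nothing states separate litters or days, p-values measure the spread between mice.

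Genes with a mean of at least 1 (11431 of 20162) were tested with limma 3.58.1 in R 4.3.3 (lmFit, then eBayes with an intensity trend). The fit took log2(value + 1) of the 54 mice together, and p-values were adjusted by Benjamini-Hochberg over all genes. The Wilcoxon rank-sum test used the normal approximation. Correlations used Python 3.11.15 with NumPy 2.4.6 and SciPy 1.17.1. On simulated data with 100 genes shifted by 0.5 and 100 by 1 (log2) at the middle dose, 66 and 92 were recovered at an adjusted p under 0.05. The shifted genes were drawn from those with a mean of at least 5, so that recovery at lower means was not measured. Of the 11475 genes run, shifted ones included, 8 unchanged genes were called. The simulated noise was independent between genes and mice. It held no effect shared within a library, so that it does not measure the error in the real values. All 8 hepatokine genes are described. Of each list up to 4 called genes with the largest log2FC are named, or the 2 with the highest mean, and of the genes most alike the first 3. Met, which lies outside this rule, was picked after its values were seen. The hepatokine genes and lists were chosen with earlier results of these data known. Replicate numbers did not pair mice (mean r of same-numbered mice -0.0025 over 79 pairs), so that a block on them was fitted only as an alternative. No identical columns were found (0 pairs).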

Additional observations from a re-analysis of the deposited data

How the results depend on the processing

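Over 14 other fits in all, the lower level of Lect2 at the high than at the middle dose kept its call, except under the added log2FC limit of 0.5, which left 0 of the 2 genes called at the middle dose against control and 0 of 2 at the high against the middle dose. The count of the 8 genes called at the middle dose against control was 1 instead of 2 with no filter on low values, after quantile normalization, with array quality weights, and with the number of entries above 0 or the ribosomal protein share as a covariate. It was 3 with a minimum mean of 5, which also called Inhbc, 0 by the Wilcoxon test and without the 5 mice with the high ribosomal protein share, and 1 to 3 without 1 mouse. At the high dose against control it was 1 instead of 0 after quantile normalization (Ahsg, log2FC -0.37, adjusted p = 0.0363). At the middle against the low dose it was 2 instead of 1 after quantile normalization or scaling to the same sum, 3 with entries above 0 as a covariate and 0 with array quality weights, with the 2 groups alone, by the Wilcoxon test, with the ribosomal protein share as a covariate and without the 5 mice, and 1 to 2 without 1 mouse. At the high against the low dose it was 1 instead of 0 (Lect2) with a minimum mean of 5, quantile normalization or scaling to the same sum. It was also 1 (Lect2) with array quality weights or the ribosomal protein share as a covariate. It was 2 with entries above 0 as a covariate (Lect2 and Fetub), and 0 to 1 without 1 mouse (Lect2 where called). At the high against the middle dose it was 1 instead of 2 with no filter, quantile normalization, array quality weights, the replicate block, the 2 groups alone, the Wilcoxon test, the ribosomal protein share as a covariate or without the 5 mice, 3 when scaled to the same sum, where Inhbc was called too (log2FC -0.39, adjusted p = 0.0475), 5 with entries above 0 as a covariate, and 1 to 2 without 1 mouse. The replicate block changed no other call of the 8 genes. Over all genes, the 1621 calls at the middle dose against control were 593 without the 5 mice, 675 with the ribosomal protein share as a covariate, 679 by the Wilcoxon test and 1067 with the 2 groups alone. The 2449 at the middle against the low dose were 694, 599, 1143 and 1774 in the same fits, and 1505 with array quality weights. The 2282 at the high against the middle dose were 916, 788, 1246 and 1690. The 137 at the low dose against control ranged from 59 (no filter) to 297 (array quality weights) over 13 other fits and, with 1 mouse left out, from 60 (low-dose replicate 8) to 159. The 248 at the high dose against control ranged from 186 to 488 and the 527 at the high against the low dose from 373 to 811. The covariates and the fits without the 5 mice were chosen after seeing the data, and the cause of these changes was not tested.

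All differences that changed sign were uncalled. Selenop at the low dose against control was -0.0219 after quantile normalization, -0.0340 with array quality weights, -0.00578 with the replicate block, -0.0410 by group medians and -0.0277 to 0.0200 without 1 mouse. Gdf15 was 0.20 at the low dose by group medians, at the high dose 0.17 with array quality weights, 0.0648 by group medians, 0.55 with entries above 0 as a covariate and -0.17 to 0.11 without 1 mouse, and -0.13 at the high against the low dose by group medians. Lect2 at the middle against the low dose was -0.0241 after quantile normalization, -0.00255 by group medians and -0.0190 with entries above 0 as a covariate. Scaling to the same sum gave -0.00713 for Inhbc at the high dose against control, -0.0103 for Rbp4 at the high against the low dose and -0.0167 for Fetub at the high against the middle dose. With entries above 0 as a covariate, Fetub was -0.0321 at the middle and -0.0699 at the high dose against control and -0.0378 at the high against the middle dose, Inhbc was -0.15 at the high dose against control and -0.0747 against the low dose, and Rbp4 was -0.10 at the high against the low dose. With the ribosomal protein share as a covariate, Inhbe at the middle dose was 0.12 against control and 0.0753 against the low dose and Rbp4 was 0.0333 at the high dose against control, and without the 5 mice Inhbe was 0.0549 at the middle dose against control. Without 1 mouse, Rbp4 at the high dose against control was -0.0726 to 0.0426 and Fetub at the high against the middle dose was -0.0199 to 0.0845.

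Of the correlations, 10 changed sign. With entries above 0 regressed out, r was 0.214 for Gdf15 with Lect2, 0.018 for Gdf15 with Rbp4, -0.096 for Ahsg with Lect2, -0.099 for Ahsg with Rbp4, -0.158 for Fetub with Lect2, -0.107 for Lect2 with Inhbc, -0.074 for Lect2 with Rbp4 and 0.111 for Inhbe with Inhbc. Selenop with Inhbc was 0.012 without the 2 farthest mice, and rho was -0.014 for Lect2 with Inhbe. Read depth is not kept in the table, so that its part in the spread of the lower genes, Gdf15, Inhbe and Inhbc, could not be given.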
